A study of Mus musculus with 6 samples.

Results

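The genes described here encode the factors that carry out and control translation: the initiation factors (symbols starting with Eif), the elongation factors (symbols starting with Eef) and the release factors Etf1 and Gspt1. They were chosen by symbol alone, with no use of their values, and 51 of the 5538 genes in the deposited table carry such a symbol. By role, 36 of them were counted as initiation factors and 6 as elongation factors. Another 3 are enzymes or scaffolds linked to elongation, 2 are release factors and 1 is a kinase that controls initiation. The last 3 carry an eIF name but act at other steps: Eif4a3, Eif6, and Eif5a, which acts in elongation and termination but was counted apart from the elongation factors. The table lists no value under 7.00 TPM (transcript abundance corrected for length and scaled to a fixed total per library), so these 51 are the factors that stayed above that level in every library. Of 23 factor symbols listed for description whatever their values, 18 have a row. Eef1a2, Eif4ebp1, Eif4ebp2, Eif2s1 and Eef2k were not analysed here.

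The libraries came from the perioculomotor (pIII) region, the midbrain tissue around the nucleus that moves the eye, of C57BL/6 mice. Every mouse carried CreER under the Fos promoter and a Cre-inducible eGFP-L10a reporter, so that cells in which Fos was active while 4-OHT was present came to carry a green fluorescent tag on ribosomal protein L10a. The mice were kept awake for 6 hr and then allowed 3 hr of recovery sleep, and 4-OHT was given just before the waking or the sleep phase. The series text speaks of the neurons tagged in recovery sleep (RS-eGFP), but the labels of the single libraries say only IP or Input and a number. IP libraries (n = 3) hold RNA recovered with antibodies against eGFP. Input libraries (n = 3) are read here as the RNA of the same dissected tissue before that step. Read this way, Input and IP samples share genotype, the 6 hr awake and the 3 hr of recovery sleep. The labels do not say at which phase 4-OHT was given for any single library. Each repeat pooled tissue from 4 to 5 mice, so the spread between replicates is a spread between pools. The tag depends on Fos-driven recombination and is not tied to a cell type by the construct.

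Translation starts when initiation factors load a small ribosomal subunit with initiator tRNA, bring it to the capped end of the mRNA and let it scan to the start codon. Elongation factors then deliver each aminoacyl-tRNA and move the ribosome along the message, and release factors free the finished protein at the stop codon. In neurons initiation is the step most often controlled, through the eIF2 and cap-binding complexes, while transcripts of elongation factors and ribosomal proteins are among the most abundant in any cell and are known to be controlled together by mTOR.

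IP 1 and Input 3 stood apart from the others. Over the 51 factor genes on the log2 scale, IP 2 correlated with IP 3 at r = 0.981 and Input 1 with Input 2 at 0.984, whereas r was 0.926 and 0.955 for IP 1 against IP 2 and IP 3, and 0.906 and 0.910 for Input 3 against the other Inputs. Against IP 1, IP 2 and IP 3, Input 3 had r of 0.885, 0.912 and 0.934 over the factors. Over all genes these were 0.786, 0.817 and 0.851, all above its 0.722 and 0.736 with Inputs 1 and 2. By its profile over all genes, Input 3 was thus nearer to the IP libraries than to its own group. Over the factors this held for IP 3, barely for IP 2, and not for IP 1. The median gene of the table stood at 27.7 TPM in IP 1 and 31.1 in Input 3, against 51.0 to 67.2 in the other 4 libraries. Each value was therefore taken as log2(TPM + 1) minus the same quantity for the median gene of its library, called the centred level below, and a log2 difference is the mean centred level in IP minus that in Input. Without centring, the median gene lay 0.25 log2 units lower in IP (-0.25). TPM keep no read depth, so the counting precision of single values is unknown. Rpl10a, the transcript of the tagged protein, stood at 559, 365 and 439 TPM in IP and at 117, 61.8 and 36.2 TPM in Input, and all 6 measured oculomotor and cholinergic neuron markers lay above 0, with a median log2 difference of 1.28.

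Relative to the median gene, the translation factors as a class stood at nearly the same level in IP as in Input. Their median log2 difference was 0.01, against 0.02 over all 5538 genes, with 26 factors above 0 and 25 below. Single factors ranged from -0.89 (Eif1a, which helps the small subunit scan) to 0.95 (Eif4g3, a scaffold of the cap-binding complex). The SE of these differences ranged from 0.21 to 0.83, with a median of 0.30. limma called 0 of the 51 factors at a Benjamini-Hochberg adjusted p of 0.05, and it called 0 of all 5538 genes, a background of 0%. The smallest adjusted p in the table was 0.649, and 411 of all genes and 5 of the factors (Eif1a, Eif4g2, Eif2s2, Eef1e1 and Eif4g3) had an unadjusted p under 0.05. An exact two-sided permutation test of 3 libraries against 3 cannot give a p under 0.1. In pooled tissue, fewer cells of a type and less RNA per cell cannot be told apart.

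**Figure D1:**
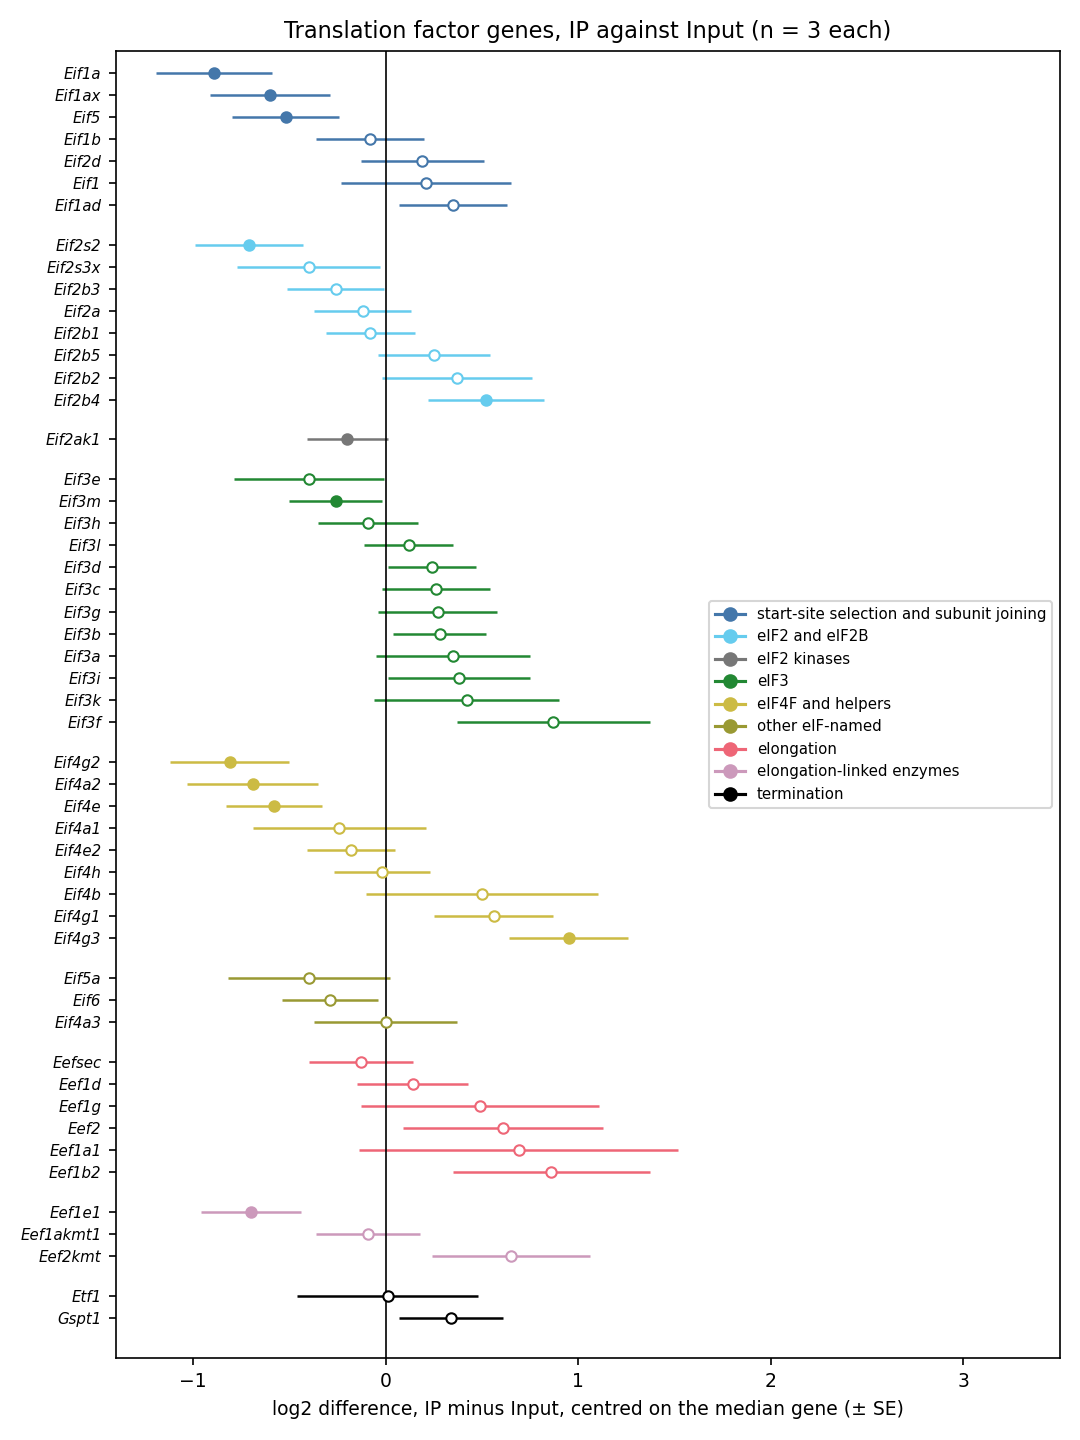
Log2 difference between IP and Input of the 51 translation factor genes, centred on the median gene of each library (x axis, points with SE, n = 3 libraries each), grouped by role (colours). Filled points mark the 12 genes whose 3 IP values all lie on one side of the 3 Input values: 2 lie to the right of 0 and 10 to the left.

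Where groups did not overlap, the factors more often lay lower in IP. All 3 IP values were below all 3 Input values in 10 factors (19.6% of 51), while 538 of all genes did so (9.71%). All 3 IP values were above all 3 Input values in 2 factors (3.92%), against 384 of all genes (6.93%). The 10 lower factors were Eif1a, Eif1ax, Eif5, Eif2s2, Eif3m, Eif4a2, Eif4e, Eif4g2, Eif2ak1 and Eef1e1, and the 2 higher ones Eif4g3 and Eif2b4. In 7 of the 10 the highest of the 6 values was in Input 3, and in 5 of them the lowest was in IP 1. The count depended on the scaling: without centring 5 factors (9.80%) lay below in all libraries, of which 3 were among these 10, against 6.21% of all genes, and 0 lay above, against 1.70% of all genes.

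Start-site selection and subunit joining held the lowest single value. Its 7 measured genes had a median log2 difference of -0.08, with 3 above and 4 below 0. All 3 IP values lay below all Input values in 3 of the 7, where 9.71% of all genes did so. Eif1a, one of a pair of genes for eIF1A, had 15.9 TPM in IP 1, 45.0 in IP 2 and 46.9 in IP 3, while the Inputs, in the same order, had 80.5, 78.1 and 60 TPM. Every IP value was under every Input value both in TPM and after centring (log2 difference -0.89, SE 0.30). Its X-linked copy Eif1ax lay the same way, at 8.92, 36.0 and 30.8 TPM in IP and 44.8, 49.0 and 28.5 TPM in Input (-0.60, SE 0.31). Eif5, whose product triggers GTP hydrolysis on eIF2 once the start codon is found, stood at 49.9, 158 and 132 TPM in IP and 188, 226 and 122 TPM in Input (-0.52, SE 0.28). In TPM the Eif1ax and Eif5 groups overlapped, because Input 3 was low, and they separated only after centring. Eif1, the factor that keeps scanning stringent, was the second most abundant factor of all. It stood at 1391, 1161 and 1253 TPM in IP and 1556, 1349 and 1033 TPM in Input, and its centred groups overlapped (0.21, SE 0.44). The other 3 genes of this role ranged from -0.08 to 0.35. Reads of the copies Eif1a and Eif1ax, and of Eif1 and Eif1b, may be shared, and no source used here says how such reads were assigned.

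The eIF2 complex brings initiator tRNA to the ribosome, and eIF2B recharges it with GTP. The 8 measured genes of this group had a median log2 difference of -0.10, with 3 above and 5 below 0. Both measured eIF2 subunits lay below 0. Eif2s2, the beta subunit, stood at 14.6, 27.0 and 29.8 TPM in IP and 54.4, 44.7 and 37.8 TPM in Input, with all IP values lowest (-0.71, SE 0.28). Eif2s3x, the gamma subunit, stood at 25.9, 38.0 and 56.3 TPM in IP and 72.3, 52.3 and 58.2 TPM in Input, and its groups overlapped (-0.40, SE 0.37). Among the subunits of eIF2B, Eif2b4 went the other way. It stood at 111, 135 and 110 TPM in IP and 127, 136 and 52.7 TPM in Input, which overlap in TPM, and only after centring did every IP library lie above every Input library (0.52, SE 0.30). The other 4 eIF2B subunits ranged from -0.26 to 0.37. Eif2a, which encodes the separate protein eIF2A and not the alpha subunit of eIF2, was among the least abundant factors, with 9.72 to 28.0 TPM in IP and 17.1 to 32.2 TPM in Input (-0.12, SE 0.25). Of the eIF2 kinases only Eif2ak1, the heme-regulated kinase that phosphorylates eIF2 under stress, has a row. It stood at 18.0, 38.5 and 31.2 TPM in IP and at 50.6, 48.0 and 23.4 TPM in Input, a small centred difference of -0.20 (SE 0.21) in which the groups did not overlap.

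The eIF3 complex, the scaffold that joins the small subunit to the mRNA-bound factors, was the initiation group that lay mostly above 0. Of 12 measured subunits 9 were above 0 and 3 below (Eif3e, Eif3h and Eif3m), with a median of 0.27. All IP values lay above all Input values in 0 subunits and below in 1, against 6.93% and 9.71% of all genes. Eif3f had the highest difference but a wide spread, with 105, 54.1 and 92.5 TPM in IP and 67.7, 90.3 and 22.9 TPM in Input (0.87, SE 0.50). Eif3b, one of the core subunits, stood at 51.3, 116 and 77.9 TPM in IP and 91.6, 113 and 41.4 TPM in Input (0.28, SE 0.24). Eif3m lay below in all libraries after centring, with 72.0, 109 and 124 TPM in IP and 186, 175 and 86.1 TPM in Input (-0.26, SE 0.24). The other 9 subunits ranged from -0.40 to 0.42. Without IP 1 the median of the complex was 0.09, and without both IP 1 and Input 3 it was -0.00.

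The eIF4F complex recognises the cap (Eif4e), unwinds the leader (Eif4a1 and Eif4a2, helped by Eif4b and Eif4h) and holds these parts together (Eif4g1 and Eif4g3). Of the 9 measured genes grouped with it, which include Eif4e2 and Eif4g2, Eif4g3, Eif4g1 and Eif4b lay above 0 and the other 6 below, with a median of -0.18. Helpers and eIF4G genes were on both sides, with Eif4h at -0.02 (SE 0.25) and Eif4g2 well below 0. Eif4g3 stood at 13.0, 56.2 and 35.2 TPM in IP and 26.2, 23.5 and 8.96 TPM in Input. In TPM IP 1 lay under Inputs 1 and 2, and after centring all IP values were the highest (0.95, SE 0.31, limma adjusted p = 0.649). Eif4g1 stood at 28.6, 69.8 and 52.8 TPM in IP and 45.7, 34.7 and 33.8 TPM in Input, and its centred groups overlapped through Input 3 (0.56, SE 0.31).

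The third gene of that name, Eif4g2, encodes DAP5, a relative that lacks the cap-binding contact and serves cap-independent initiation, and it lay the opposite way. It stood at 69.9, 201 and 165 TPM in IP and at 305, 292 and 236 TPM in Input, with every IP value lowest in TPM and after centring (-0.81, SE 0.31). Eif4e, the cap-binding protein, stood at 111, 209 and 243 TPM in IP and 369, 438 and 196 TPM in Input (-0.58, SE 0.25). Eif4a2, the helicase copy that is the more abundant in brain, stood at 77.3, 249 and 295 TPM in IP and 397, 425 and 239 TPM in Input (-0.69, SE 0.34). For Eif4e and Eif4a2 the groups separated after centring only. Eif4a1, the near-identical copy, stood at 91.6, 72.6 and 118 TPM in IP and 264, 121 and 68.5 TPM in Input, and overlapped (-0.24, SE 0.45). Reads shared by the helicase copies, and small nucleolar RNA genes that lie inside both of them, make these values less certain. Such small RNA genes also overlap Eef1b2, Eef2, Eif3a, Eif4g1, Eif4g2 and Eif5 on the same strand, so the same limit holds there.

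**Figure D2:**
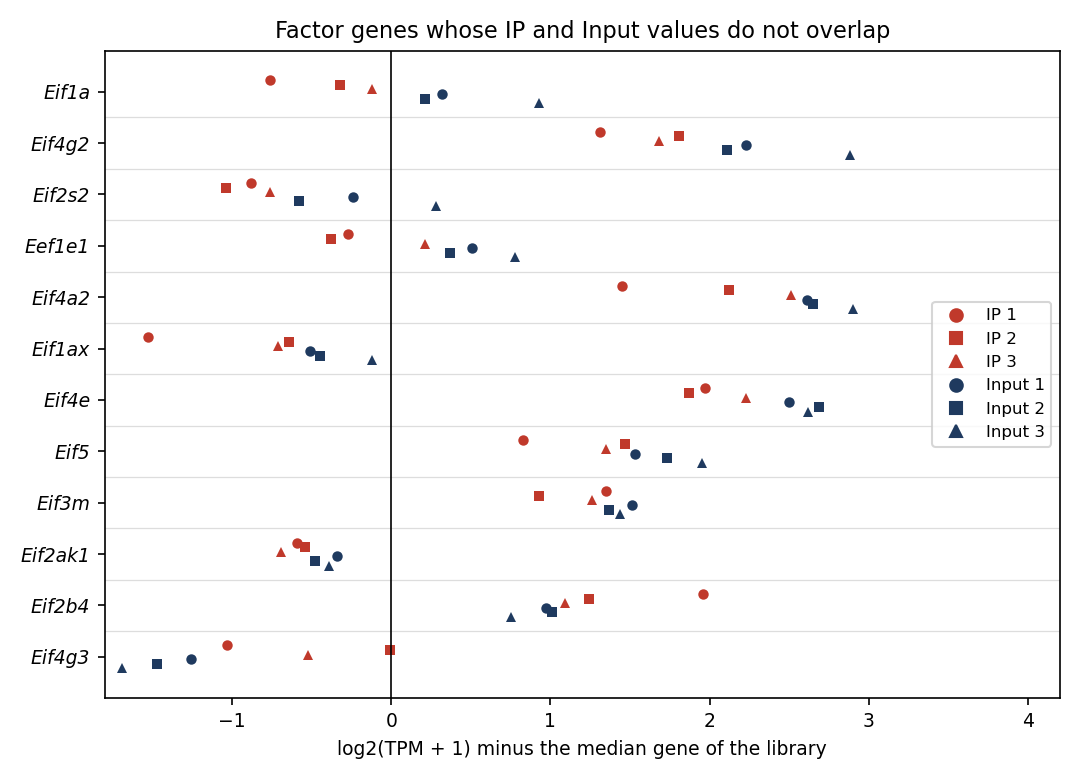
Centred level (x axis, log2(TPM + 1) minus the median gene of the library) of the 12 factor genes whose IP (red) and Input (blue) libraries do not overlap, 1 point per library. In the upper 10 genes the red points lie to the left, often with Input 3 as the highest point, and in Eif2b4 and Eif4g3 they lie to the right.

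The elongation factors formed the group with the highest median. Of its 6 measured genes 5 lay above 0, with a median log2 difference of 0.55, against 0.05 for the 36 initiation factors, of which 18 lay above and 18 below. The gap between both medians was 0.50. A related gap, between the median centred levels of elongation and initiation factors in each library, varied within IP and Input with an SD of 0.67. That is a wider measure than the SE of a difference of 3 libraries against 3. No elongation factor separated all IP from all Input libraries. Over all genes 6.93% did so above and 9.71% below, so a count of 0 among 6 genes does not set them apart. The SD of the median centred level itself was 0.82 for elongation, against 0.17 for initiation. The elongation median moved with single libraries: it was 0.00 without IP 1, 0.94 without IP 2, 0.30 without Input 1, 0.31 without Input 2 and 0.90 without Input 3. Without both IP 1 and Input 3 it was 0.29, against -0.10 for initiation. The group leaves out Eif5a, which also acts in elongation and lay below 0 (-0.40, SE 0.42).

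Eef1a1, which delivers aminoacyl-tRNA and is the most abundant factor in the table, lies on chr9:78478449-78489151 (GRCm38, minus strand). It stood at 4032, 1614 and 2347 TPM in IP and at 1387, 1337 and 3254 TPM in Input. IP 1 and Input 3 were the highest of the 6, and IP 2 and IP 3 lay above Inputs 1 and 2 only (0.69, SE 0.83, limma adjusted p = 0.807). Eef2, the translocase that moves the ribosome by 1 codon (chr10:81176631-81182498, plus strand), varied little between libraries, at 655, 497 and 605 TPM in IP and 414, 439 and 506 TPM in Input. In TPM only IP 2 was under the highest Input library, and after centring Input 3 stood above IP 2 and IP 3 (0.61, SE 0.52). The guanine exchange complex recharges eEF1A. Its subunit gene Eef1b2 stood at 670, 338 and 468 TPM in IP and 408, 339 and 216 TPM in Input (0.86, SE 0.51). Eef1g, the structural subunit, stood at 594, 250 and 342 TPM in IP and 290, 333 and 317 TPM in Input, with IP 1 alone far above the rest (0.49, SE 0.62). Eef1d, the third subunit, stood at 99.1, 123 and 115 TPM in IP and 129, 153 and 87.7 TPM in Input (0.14, SE 0.29). Eefsec, the factor for selenocysteine, was rare at 8.78, 23.6 and 20.6 TPM in IP and 23.6, 23.9 and 17.4 TPM in Input, and was the only one below 0 (-0.13, SE 0.27). The 6 genes thus fall into 4 abundant ones with differences of 0.49 to 0.86 and wide errors, and Eef1d and Eefsec near 0.

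**Figure D3:**
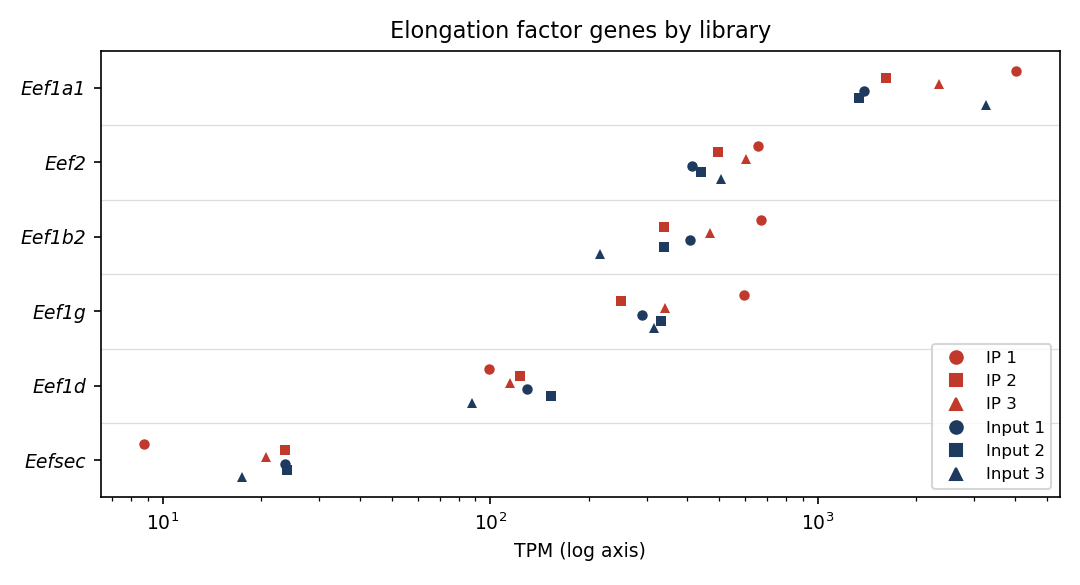
TPM of the 6 elongation factor genes (x axis, log scale), 1 point per library, IP in red and Input in blue. IP 1 is the highest point in the 4 most abundant genes and Input 3 is the second highest for Eef1a1, while in Eefsec IP 1 is the lowest.

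Library by library, elongation stood above initiation everywhere, but by very different amounts. The median centred level of elongation factors was 4.45, 2.34 and 2.95 in IP 1, IP 2 and IP 3 and 2.40, 2.30 and 3.03 in Inputs 1, 2 and 3. Initiation factors stood at 0.85, 0.40 and 0.70 in IP and 0.57, 0.46 and 0.59 in Input. The gap was therefore 3.60 log2 units in IP 1, 2.44 in Input 3, 2.25 in IP 3, 1.94 in IP 2, and 1.83 and 1.84 in Inputs 1 and 2. Input 3 lay between the IP libraries, so the groups overlapped.

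The summed TPM, which need no centring, gave the same order. Elongation factors summed to 6059, 2846 and 3898 TPM in IP and 2651, 2626 and 4398 TPM in Input, and initiation factors to 3988, 4822 and 5029 TPM in IP and 6565, 6345 and 3638 TPM in Input. The ratio of elongation to initiation was 1.52, 0.59 and 0.775 in IP and 0.404, 0.414 and 1.21 in Input. Eef1a1 alone made up 50.9% to 74% of the elongation sum. With Eef1a1 left out the ratio was 0.508, 0.255 and 0.308 in IP and 0.193, 0.203 and 0.314 in Input, so every IP library was above Inputs 1 and 2 in either form, and Input 3 was above IP 2 and IP 3. All 51 factors together took 1.02% to 1.25% of the listed TPM, with overlapping groups.

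Ribosomal protein transcripts showed a similar dependence on IP 1. Of 81 measured cytosolic ribosomal protein genes 79 lay above 0, with a median log2 difference of 0.94 that was 0.15 without IP 1. Their median centred level was 4.43, 1.55 and 2.27 in IP and 2.24, 1.60 and 1.46 in Input. IP 1 was therefore high for elongation factors and ribosomal proteins alike, while Input 3 was high for elongation factors and the lowest of all 6 libraries for ribosomal proteins. Markers of other cells also moved with these libraries. The 6 oligodendrocyte markers measured of 9 summed to 365, 2920 and 4437 TPM in IP and 4108, 4877 and 536 TPM in Input, and the 5 astrocyte markers measured of 10 summed to 704, 2001 and 2031 TPM in IP and 3470, 3792 and 720 TPM in Input. Both sums were lowest in IP 1 and Input 3. Not every marker followed its sum: the astrocyte marker Gfap was highest in Input 3, at 67.3 TPM, against 14.9 to 35.8 TPM in the other libraries. The table's lower limit means that no listed marker can be at 0. Endothelial markers, 2 measured of 7, summed to 97.2, 453 and 93.3 TPM in IP and 71.0, 78.4 and 32.1 TPM in Input, with a median log2 difference of 1.69, above that of the oculomotor and cholinergic list. The 8 general neuron markers had a median of 0.18, with 5 above and 3 below 0, and summed to 4374 to 9126 TPM in IP and 5329 to 8459 TPM in Input. The part of these cells in the factor values was not tested.

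**Figure D4:**
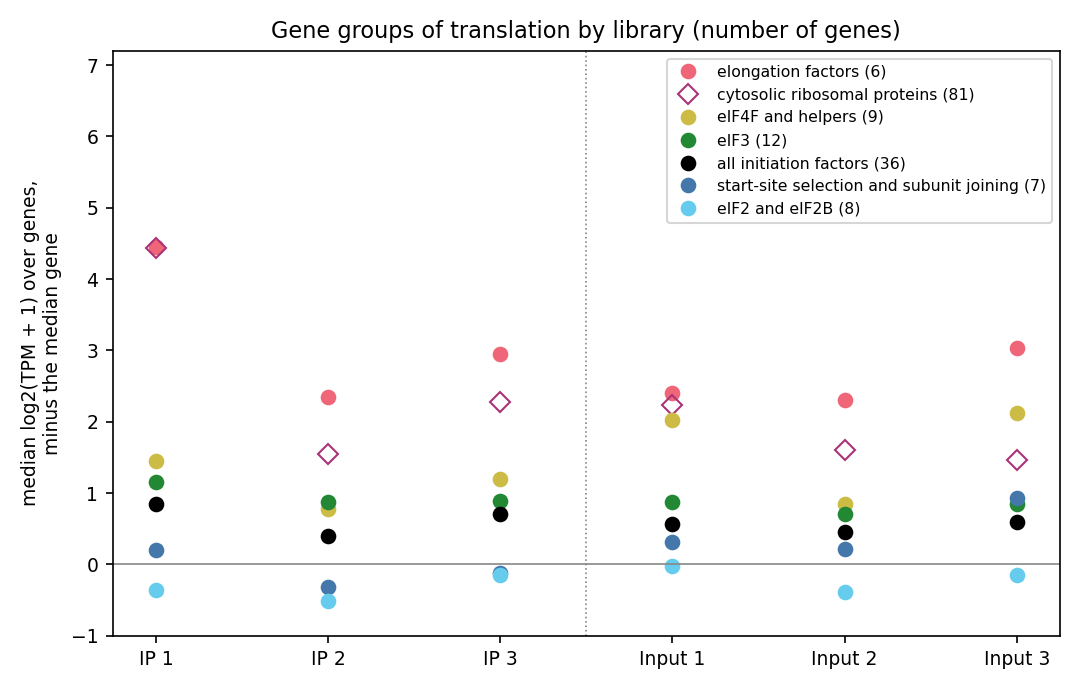
Median centred level over the genes of each group (y axis, log2 units above the median gene of the library) in the 6 libraries (x axis), with the number of genes per group in the key. Elongation factors (pink) and ribosomal proteins (open diamonds) stand at 4.45 and 4.43 in IP 1, and in Input 3 they part, at 3.03 and 1.46.

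Many transcripts of ribosomal proteins and of some translation factors begin with a C followed by an unbroken run of C and T, the terminal oligopyrimidine start through which mTOR controls their translation. It was searched for on the sense strand at the annotated start of every coding transcript, as a C at the first base followed by at least 4 bases that are each C or T. Such a start was found in at least 1 coding transcript of 8 of the 51 factors (15.7%), of 23 of 85 cytosolic ribosomal protein genes (27.1%) and of 1121 of all 21901 genes with a coding transcript (5.12%). A gene with more annotated transcripts has more chances of such a start, and the shares were not adjusted for this or for expression. Annotated starts can be off by some bases, so a missing run says only that these letters do not open the annotated transcript. The first 24 bases are shown for an elongation factor, an initiation scaffold and a helicase with such a start, and for the elongation factor Eef2, whose annotated start has none. In Eef2 a C followed by at least 4 such bases lies further inside the printed stretch, so Eef2 cannot be taken as a gene without such a start. The run from the first base is in capitals (GENCODE M21 transcripts on GRCm38).
Eef1b2, chr1:63177130-63177153, plus strand: CTTTTTTTCCCTCagcgctggccg
Eif3f, chr7:108934417-108934440, plus strand: CTCTTTCTCggcaagatggcttct
Eif4a2, chr16:23107758-23107781, plus strand: CTTTTCagtcgggcgctgagtggg
Eef2, chr10:81176631-81176654, plus strand: gttgacgtcagcggtctcttccgc

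The 8 genes with such a start in at least 1 annotated coding transcript did not lie on one side. TPM are given per gene, so they do not tell which transcript was present, and genes whose run was missed are not among the 8. Eef1b2 (0.86), Eif3f (0.87), Eif2b4 (0.52) and Eef1d (0.14) lay above 0. Eif4g2 (-0.81), Eif4a2 (-0.69), Eif2s3x (-0.40) and Eif3m (-0.26) lay below. The longest of the runs shown opens Eef1b2, with 13 bases.

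The factors with other tasks lay mostly below 0. Eif5a, the hypusine-bearing protein that helps the ribosome through difficult peptide bonds, stood at 496, 574 and 620 TPM in IP and 837, 901 and 898 TPM in Input. In TPM every IP library was the lower, but after centring the groups overlapped, IP 1 lying above Inputs 1 and 2 (-0.40, SE 0.42). Eif6, which keeps the large ribosomal subunit from joining too early, stood at 101, 171 and 129 TPM in IP and 229, 251 and 120 TPM in Input (-0.29, SE 0.25). Eif4a3, a helicase of the exon junction complex, stood at 49.0, 128 and 130 TPM in IP and 184, 186 and 40.0 TPM in Input, and its centred means were the same to 2 decimals (-0.00, SE 0.37). Eef1e1, also known as AIMP3 and a scaffold of the tRNA synthetase complex, was the lowest of the Eef symbols. It stood at 22.8, 43.3 and 59.0 TPM in IP and 91.9, 86.9 and 54.0 TPM in Input, and its groups separated after centring (-0.70, SE 0.26). The methyltransferases of the elongation factors did not share a direction. Eef2kmt, which modifies eEF2, was the rarest factor of all, with 11.3 to 13.7 TPM in IP and 7.80 to 12.5 TPM in Input (0.65, SE 0.41), and Eef1akmt1, which modifies eEF1A, ranged from 44.6 to 79.2 TPM in IP and from 37.5 to 113 TPM in Input (-0.09, SE 0.27).

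The release factors were rare and overlapped between groups. Etf1, which reads the stop codon, stood at 22.0, 16.5 and 21.7 TPM in IP and 26.5, 20.1 and 24.6 TPM in Input (0.01, SE 0.47). Gspt1, its GTPase partner, stood at 12, 27.3 and 29.9 TPM in IP and 30.4, 28.8 and 8.88 TPM in Input (0.34, SE 0.27). Without centring Etf1 lay below 0 (-0.23).

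Without the libraries that stood apart, the comparison was of IP 2 and IP 3 with Inputs 1 and 2, and 3 initiation genes passed the test. These 2 libraries were left out because they differed from their own groups in the same data, which by itself can narrow the spread, so the SE and p-values that follow may be too small. limma then called 187 of all genes higher in IP (3.38%) and 160 lower (2.89%), and of the factors it called 3 higher and 0 lower. Eif4b, the helicase helper, rose from 63.8 and 64.8 TPM in Inputs 1 and 2 to 97.5 and 109 TPM in IP 2 and IP 3 (log2 difference 0.96, SE 0.19, limma adjusted p = 0.0266). Input 3 held 138 TPM of Eif4b, the highest value of the gene, and with all libraries its difference was 0.50 (SE 0.60). Eif4g3 had a log2 difference of 1.10 (SE 0.24, limma adjusted p = 0.0332). Eif3a, the largest subunit of eIF3, stood at 50.1 and 42.4 TPM in IP 2 and IP 3 and 28.7 and 33.1 TPM in Inputs 1 and 2 (0.85, SE 0.20, limma adjusted p = 0.0421). It stood at 21.3 TPM in IP 1 and 38.5 TPM in Input 3, and with all libraries its difference was 0.35 (SE 0.40). Eif4b and Eif3a were chosen for description after their values were seen.

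Just outside the threshold in these 4 libraries were Eif4g1 (0.88, SE 0.22, limma adjusted p = 0.0533), Eef1a1 (0.80, SE 0.24, limma adjusted p = 0.0867) and Eef2 (0.65, SE 0.20, limma adjusted p = 0.0978). Eef1b2, Eef1g and Eef1d stood at 0.39, 0.20 and 0.04. Of the 10 factors that lay below in all libraries, 8 were closer to 0 here: Eif1a and Eif2s2 at -0.49, Eef1e1 at -0.52, Eif4e at -0.54, Eif4g2 at -0.42, Eif4a2 at -0.31, Eif5 at -0.22 and Eif1ax at -0.19. Eif3m (-0.35) and Eif2ak1 (-0.21) lay further from 0. So did other genes below 0 in the full comparison, among them Eif4a1 (-0.65) and Eif6 (-0.40). Both IP values lay above both Input values in 12 factors (23.5%) and below in 17 (33.3%), close to the shares over all genes, 25.2% and 31.5%. In these 4 libraries longer genes lay higher in IP: across factors, the Spearman correlation of the log2 difference with the length of the longest coding transcript was 0.28 (n = 51), and across all 5354 genes with a length it was 0.32. With all 6 libraries these correlations were -0.09 and -0.01. These are descriptions across genes, which share libraries and are not independent replicates.

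By level, the factors spanned a wide range with few at the top. Averaged over all 6 libraries in TPM, Eef1a1 (2329), Eif1 (1291), Eif5a (721), Eef2 (519) and Eef1b2 (406) were the highest, and Eif2a (23.7), Gspt1 (22.9), Etf1 (21.9), Eefsec (19.6) and Eef2kmt (11.1) the lowest. Across the 51 factors the Spearman correlation of the log2 difference with mean TPM was 0.08, and 0.01 across all genes. Without IP 1 and Input 3 these correlations were -0.20 and -0.21. After centring, IP 1 held the highest value in 20 factors and Input 3 in 17, while the lowest value was in IP 2 in 15 and in Input 3 in 13.

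Other genes of translation, outside the factor symbols, lay on both sides of 0, apart from the mitochondrial factors. The 20 measured cytosolic tRNA synthetase and scaffold genes had a median log2 difference of 0.10, with 12 above and 8 below 0. Rars, for arginine, lay below in all libraries after centring (-0.51, SE 0.29), as did 9.71% of all genes. In TPM its IP 2 and IP 3, at 47.1 and 46.5, were above Input 3, at 29.7. Vars, for valine, stood at 0.63 (SE 0.44). The 5 mitochondrial factors measured of 9 all lay above 0, with a median of 0.29, led by Tufm, the mitochondrial counterpart of eEF1A (0.52, SE 0.26), and Mrrf, which recycles mitochondrial ribosomes (0.29, SE 0.25). limma called 0 genes of these lists.

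Of 35 listed regulators 24 were measured, 13 above and 11 below 0, with a median of 0.12. Larp1, which binds the oligopyrimidine start, stood at 20.6, 57.9 and 35.7 TPM in IP and 31.8, 26.0 and 13.0 TPM in Input, with all IP values highest after centring (0.88, SE 0.25). Dhps, the enzyme that begins the hypusine modification of eIF5A, stood at 36.4, 65.5 and 65.6 TPM in IP and 127, 145 and 56.1 TPM in Input, with all IP values lowest after centring (-0.65, SE 0.22). Rheb and Pabpc1 are named after their values were seen. Rheb, the GTPase that activates mTOR, lay below in all libraries (-1.17, SE 0.50). Pabpc1, the poly(A)-binding protein that contacts eIF4G, had the widest range, with 843, 286 and 455 TPM in IP and 59.0, 48.6 and 660 TPM in Input (2.18, SE 1.30). As for Eef1a1, Inputs 1 and 2 were the lowest libraries for Pabpc1, and Input 3 stood among the IP values.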

How the data were processed

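The deposited table holds TPM for 5538 genes in 6 libraries (3 IP, 3 Input), per the file headers. Per the submitters' processing notes, RSEM, DESeq and the genome build mm10 were used, with no versions. The aligner, the annotation and whether counting used strand are not given in the sources used here. Overlapping genes on the opposite strand (at Eif2s2, Eif3m, Eif2ak1, Eif4a2, Eif2b4 and Eef1b2, among others) therefore cannot be told apart from the factors. The table has 0 columns that matched no sample, 5 rows that share their values with another row (0 of them factors), and 0 pairs of identical libraries. TPM give no read depth, and the listed genes sum to 855954 to 885495 TPM per library.

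TPM were taken as log2(TPM + 1), centred on the median gene of each library, and compared with limma 3.58.1 in R 4.3.3 (lmFit, eBayes with a trend), with group as the only term, p-values adjusted by Benjamini-Hochberg over the whole table and called at 0.05. A minimum mean TPM of 1 left out 0 genes. Differences on this scale understate those of genes with low TPM. Gene groups are described by counts and medians, without a test. The labels do not say that equal replicate numbers mark shared mice. Deviations of same-numbered libraries correlated at -0.10, 0.25 and -0.17, so the numbers were not taken as pairs. Alternatives were no centring, quantile normalization, a pseudocount of 0.1, a mean TPM of at least 20, no variance trend, a replicate block, each library left out in turn, and IP 1 and Input 3 left out together.

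The genes named by rule are 32: a set list of symbols, the 3 of each role with the smallest p, and the 5 with the highest and the 5 with the lowest mean TPM. Eif3a and Eif4b were added after their values were seen. Eif4h, Eif3e and Eif3h are also named outside this rule, as are further factors that changed sign between alternatives. Of other lists the 2 with the smallest p are named. Members, role lists, other lists and alternatives were chosen with earlier results of these data known. Coordinates and transcript starts are from GENCODE M21 (GRCm38, the build mm10).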

Additional observations from a re-analysis of the deposited data

How the results depend on the processing

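Of the 51 factors, 30 kept 1 direction in every alternative. Without both IP 1 and Input 3, limma called 347 genes and 3 factors, all IP values lay above all Input values in 12 factors and below in 17, and 7 factors changed sign: Eefsec (0.19), Eif2a (0.12), Eif2b2 (-0.22), Eif2b5 (-0.11), Eif3i (-0.10), Eif3k (-0.17) and Eif3g (-0.00). Without centring, 0 factors lay above and 5 below, the initiation median was -0.19, and 6 factors changed sign: Eif1 (-0.03), Eef1d (-0.10), Etf1 (-0.23), Eif2d (-0.06), Eif3d (-0.01) and Eif3l (-0.13). Quantile normalization turned Eif1 (-0.19), Etf1 (-0.06) and Eif4a3 (0.02), and a pseudocount of 0.1 turned Eif4a3 (0.00). With a replicate block limma called 0 genes, 10 factors lay below and 2 above, and the elongation and initiation medians were 0.55 and 0.05, so no call changed. Leaving out each library in turn gave 0 to 17 called genes (17 without Input 3), 0 called factors, 3 to 10 factors above (10 without Input 3, or 19.6%, against 18.1% of all genes), 10 to 12 below (12 without Input 3, or 23.5%, against 20.2%), an elongation minus initiation gap of 0.05 to 0.89, and these ranges across 0: Eef1g -0.16 to 0.96, Eif1 -0.17 to 0.47, Eef1d -0.08 to 0.27, Etf1 -0.37 to 0.39, Eefsec -0.24 to 0.08, Eif2a -0.21 to 0.03, Eif4a3 -0.38 to 0.20, Eef1akmt1 -0.24 to 0.08, Eif4a1 -0.55 to 0.12, Eif3k -0.11 to 0.80, Eif2b2 -0.03 to 0.58, Eif2d -0.05 to 0.50, Eif3g -0.01 to 0.44, Eif3h -0.24 to 0.07, Eif1b -0.24 to 0.06, Eif2b1 -0.21 to 0.05 and Eif4h -0.07 to 0.03. The causes of these changes were not tested. A mean TPM of at least 20 left 49 factors and 4961 genes. Depth is unknown in TPM, so no limit of detection can be given, and 3 pools per group limit the precision.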
